A study of Mus musculus with 6 samples.

Results

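The Hox genes of mouse fibroblasts were taken from the rows of the deposited gene table whose symbol is Hox, a cluster letter (a to d) and a paralog number. Of the 25140 genes in the table, 27 Hox genes are reported, 8 of HoxA, 9 of HoxB, 5 of HoxC and 5 of HoxD. The mouse annotation (GENCODE M21, build GRCm38, also called mm10) holds 39 such genes.

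RNA-seq libraries were made from primary fibroblasts of C57BL/6 mice at passage 1, with 3 samples in the vehicle group and 3 in the TGFβ group. All samples were grown in DMEM with 25 mM glucose and held in 1% FBS for 16 h, and then kept for 24 h with or without TGFβ at 10 ng/mL. TGFβ is the cytokine best known for making myofibroblasts out of fibroblasts. The sample labels give adult cardiac fibroblasts, and the sequencing methods of the paper also name cardiac fibroblasts. Its methods describe these as digested from ventricles after the atria were removed. The results and figure legends of the paper instead call the sequenced cells MEFs (mouse embryonic fibroblasts). The paper states the embryonic day at which its MEFs were taken. Beyond adult in the labels, neither source gives the age of the animals for cultured cardiac fibroblasts. Neither gives their sex or says which animals made up a sample, so p-values measure the spread between these samples only. The table's columns name the group but not the replicate, so each library is named by its group and its total. With vehicle the totals were 31.07, 29.30 and 29.33 M counts and with TGFβ 27.85, 28.89 and 28.64 M, and values per library are given in that order throughout.

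Hox genes encode homeodomain transcription factors that give cells their position along the head-to-tail axis. They lie in 4 clusters, and within each cluster the genes are numbered by paralog group from the 3′ end, active in anterior tissue, to the 5′ end, active in posterior and distal tissue. Fibroblasts of different body sites are known to keep different Hox patterns in culture. Hox proteins bind DNA together with TALE homeodomain cofactors (PBX, MEIS and PREP proteins), and Polycomb complexes hold silent Hox genes shut.

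Markers of several cell types were set beside the label. All 6 cardiac fibroblast markers passed the filter on low counts, among them *Tcf21*, a transcription factor of epicardium-derived fibroblasts, at 303.91, 306.62 and 299.60 CPM (counts scaled to one library size with TMM factors) with vehicle and 146.62, 144.86 and 148.94 CPM with TGFβ. All 6 endothelial, all 6 leukocyte and all 6 smooth muscle and pericyte markers passed it too, so passing the filter does not tell cell types apart. With TGFβ, 3 of the 6 cardiac fibroblast markers were lower and 0 higher by the test used below. Of 6 general fibroblast markers 5 were lower, where 20.1% of all genes tested were lower. Of 6 cardiomyocyte markers, *Myh6*, the adult myosin heavy chain of mouse cardiomyocytes, stayed between 0.07 and 0.54 CPM. *Tnnt2*, of the same list, had 58.26, 37.59 and 44.39 CPM with vehicle and 39.48, 26.64 and 35.88 CPM with TGFβ. The rest of this list stayed at or below 1.16 CPM. The summed CPM of 6 endothelial markers ran from 410.9 to 643.7 with vehicle and from 374.4 to 518.8 with TGFβ, and that of 6 leukocyte markers from 248.2 to 357.6 and from 212.6 to 317.5. Of 6 smooth muscle and pericyte markers, *Notch3* was lower with TGFβ (log2 fold change -1.85) and *Cspg4* higher (1.45), and the median over the list was 0.18. In bulk RNA, fewer cells of a type and less RNA per cell cannot be told apart.

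With vehicle, Hox RNA was scarce and on average came mainly from anterior and central genes of HoxA and HoxB and from *Hoxd8* and *Hoxd9*. Its summed CPM with vehicle was 23.22, 12.81 and 27.52, of which HoxA held 5.69, 0.47 and 4.83. HoxA thus added little in the library of 29.30 M. The 27 genes together held 739, 380 and 821 counts with vehicle and 710, 408 and 853 with TGFβ. A mean of at least 1 CPM with vehicle was reached by 6 genes, *Hoxa5*, *Hoxb2*, *Hoxb3*, *Hoxb4*, *Hoxd8* and *Hoxd9*. Paralog groups 2, 3, 4, 5, 8 and 9 each had 1 gene at that level, and the reported genes of groups 6, 7, 10 and 13 did not reach it. No gene of groups 11 and 12 is in the deposited gene table, and neither are *Hoxa13*, *Hoxb1*, *Hoxc8*, *Hoxc10*, *Hoxd1* and *Hoxd13*. The lowest total of any gene in the table was 1 count. At a mean of at least 0.1 CPM, 16 genes were counted. *Hoxb13* and *Hoxc9* had 0 counts in every vehicle library, for which the exact 95% Poisson interval reaches 3.69 counts in each library. Intervals on counts cover counting error only.

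Levels of different genes were compared per length, as RPKM, the CPM per kilobase of merged exon. With vehicle, *Hoxd8* was highest at 1.72 ± 0.195 RPKM (SD, n = 3), followed by *Hoxb4* at 1.20 ± 0.570 and *Hoxa5* at 1.00 ± 0.834. *Hoxb3* (0.857 ± 0.433), *Hoxb2* (0.775 ± 0.350), *Hoxd9* (0.497 ± 0.0609) and *Hoxc13* (0.392 ± 0.0699) came next. Among the first 6 genes, neighbours in the order differed by less than the SD of at least one of each pair, while *Hoxc13* lay below *Hoxd9* by more than either SD. *Hoxd10* (0.179 ± 0.0704), *Hoxa4* (0.179 ± 0.148), *Hoxa3* (0.139 ± 0.107), *Hoxa7* (0.111 ± 0.121) and *Hoxb5* (0.0989 ± 0.0499) completed the 12 highest, and the other 15 genes were lower. Of the summed vehicle RPKM of the 27 genes reported, HoxA held 21.2%, HoxB 39.5%, HoxC 7.75% and HoxD 31.6%. By position, the anterior groups up to 3 held 24.5% of it, groups 4 to 8 60.7% and groups 9 to 13 14.8%.

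**Figure D1:**
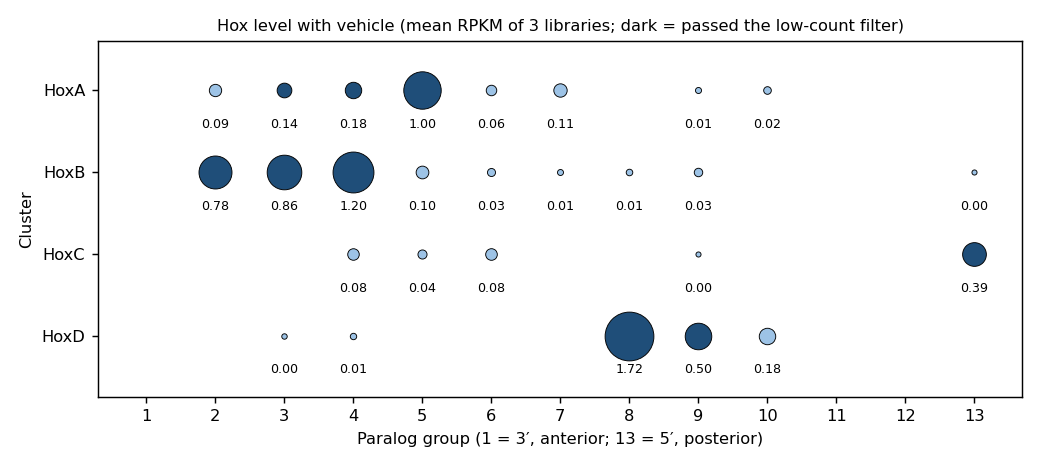
Mean RPKM of each Hox gene with vehicle (3 libraries), by cluster (rows) and paralog group (columns), with the circle area growing with the level and the value below each circle. Dark circles are the 9 genes that passed the filter on low counts and light circles the other genes reported. The largest circles are *Hoxd8* (1.72), *Hoxb4* (1.20) and *Hoxa5* (1.00).

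The promoters of the gene with the highest RPKM in HoxA, HoxB and HoxD are shown because these 3 genes differ in how their levels vary between libraries. The sequences are RefSeq's (build GRCm38.p6), from 250 bases before to 50 after the annotated start, 5′ to 3′ on the gene's strand. *Hoxa5* lies at chr6:52204538-52204837 (minus strand), *Hoxb4* at chr11:96318017-96318316 (plus strand) and *Hoxd8* at chr2:74704365-74704664 (plus strand). Capitals mark a match to the SMAD box CAGAC or to TGATNNAT, the composite site of PBX with a HOX protein, on either strand.
Hoxa5 promoter: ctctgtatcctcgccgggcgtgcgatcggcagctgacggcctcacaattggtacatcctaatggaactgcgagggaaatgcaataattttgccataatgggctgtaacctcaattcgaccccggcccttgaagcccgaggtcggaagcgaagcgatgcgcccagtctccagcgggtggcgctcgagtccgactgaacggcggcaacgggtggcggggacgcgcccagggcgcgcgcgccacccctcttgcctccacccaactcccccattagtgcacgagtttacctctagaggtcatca
Hoxb4 promoter: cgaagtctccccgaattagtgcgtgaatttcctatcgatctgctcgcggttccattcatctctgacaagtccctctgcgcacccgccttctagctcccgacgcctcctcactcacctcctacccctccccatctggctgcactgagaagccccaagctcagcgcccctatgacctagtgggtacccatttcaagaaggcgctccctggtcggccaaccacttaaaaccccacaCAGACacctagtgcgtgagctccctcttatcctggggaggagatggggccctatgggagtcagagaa
Hoxd8 promoter: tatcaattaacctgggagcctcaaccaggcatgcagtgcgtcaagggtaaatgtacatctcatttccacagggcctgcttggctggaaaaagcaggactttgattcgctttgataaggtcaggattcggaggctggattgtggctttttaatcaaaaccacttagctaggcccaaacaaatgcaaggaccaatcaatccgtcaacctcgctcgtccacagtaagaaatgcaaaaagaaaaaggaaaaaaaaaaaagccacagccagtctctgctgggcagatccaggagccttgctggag
The *Hoxb4* window holds 1 CAGAC and the others hold neither motif. The *Hoxa5* window has 29 CpG and 61.7% G and C, the *Hoxb4* window 14 CpG and 58% and the *Hoxd8* window 6 CpG and 46.7%. Promoter sequences were found for 15 of the 27 genes, as 16 windows, of which 7 hold CAGAC and 2 hold TGATNNAT, while 49.6% and 8.85% of all 32851 promoters in the table do. The median Hox window has 13.5 CpG against 7 over all promoters. A match is a description of letters and says nothing of binding.

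None of these Hox genes passed the test for a change with TGFβ. The filter on low counts kept 9 of the 27 genes, *Hoxa3*, *Hoxa4*, *Hoxa5*, *Hoxb2*, *Hoxb3*, *Hoxb4*, *Hoxc13*, *Hoxd8* and *Hoxd9*. edgeR's quasi-likelihood test was fitted to all 14334 genes kept, with Benjamini-Hochberg adjustment, and 0 of the 9 had an adjusted p under 0.05. At an unadjusted p under 0.05 there were also 0, against 49% of all genes tested. DESeq2 and limma-voom also called 0. Over all genes tested 40.7% were called, 20.5% higher and 20.1% lower with TGFβ, and 24.3% of the 3447 genes within the tested Hox genes' range of average level. Those 3447 genes were matched on level and not on spread between libraries, so 0 calls do not show a lack of response. The test was also unpaired, since libraries could not be matched between the groups. The log2 fold change of TGFβ over vehicle was positive in 7 genes (all of HoxA, HoxB and HoxC) and negative in 2 (both of HoxD). Its median was 0.31 over the 9 genes and -0.00 over all genes tested, with a median size of 0.38 and 0.21. By position, the median log2 fold change was 0.41 over 3 genes of the groups up to 3, 0.24 over 4 genes of groups 4 to 8 and -0.12 over 2 genes of groups 9 to 13.

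**Figure D2:**
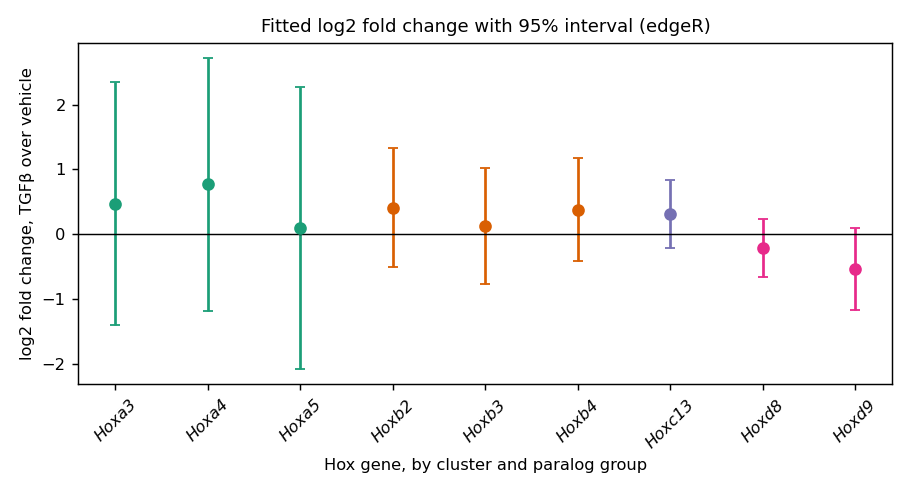
Fitted log2 fold change of TGFβ over vehicle (vertical axis) with its 95% interval for the 9 Hox genes that passed the filter, in the order of cluster (colours) and paralog group. Every interval includes 0, and those of *Hoxa3*, *Hoxa4* and *Hoxa5* are the widest (for *Hoxa5*, -2.08 to 2.28).

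In HoxA (chromosome 6, minus strand), the level of most genes differed far more between libraries of one group than between the groups. *Hoxa5* (ENSMUSG00000038253, chr6:52201754-52204587), needed for lung and cervical skeleton, had 103, 5 and 67 counts with vehicle and 98, 4 and 68 with TGFβ, or 3.24, 0.17 and 2.25 CPM and 3.58, 0.14 and 2.39 CPM. Each group held 1 library with hardly any *Hoxa5* RNA, and its highest value was 19.2 times the lowest with vehicle and 25.0 times with TGFβ. The median of that ratio was 1.40 and 1.42 over genes in the Hox range of level, of which 0.203% reached the ratio of *Hoxa5* in each group. The log2 fold change was 0.10 (SE 0.94, 95% interval -2.08 to 2.28, adjusted p = 0.945). Its sign changed when the vehicle library of 29.30 M (-0.43), the TGFβ library of 27.85 M (-0.57) or that of 28.64 M (-0.04) was left out.

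*Hoxa3* (ENSMUSG00000079560, chr6:52169062-52213336), which patterns the third pharyngeal arch, was low in the same libraries, at 1.10, 0.10 and 1.31 CPM with vehicle and 1.54, 0.18 and 1.79 with TGFβ (log2 fold change 0.47, SE 0.81, adjusted p = 0.675). *Hoxa4* (ENSMUSG00000000942, chr6:52189671-52191753) had 0.25, 0.07 and 0.54 CPM and 0.77, 0.04 and 0.67 CPM (0.77, SE 0.84, adjusted p = 0.502). *Hoxa7* (ENSMUSG00000038236, chr6:52214491-52221854), a patterning gene of the thoracic skeleton, had 22, 0 and 8 counts and 15, 1 and 6 counts and did not pass the filter. In all 3 genes the groups overlapped, and the second library of each group was the lowest. In the annotation, 24.6% of the 75-base windows of *Hoxa3*, 11.9% of those of *Hoxa4* and 26.2% of those of *Hoxa7* also occur in other transcripts, and strand use in counting is not given in the sources used here. *Hoxa5* shares none. *Hoxa2* and *Hoxa6* had 0 or 1 count in these 2 libraries and 0 to 10 in the others, *Hoxa9* had 0 to 2 counts, and *Hoxa10*, with 2, 2 and 3 counts against 1, 1 and 0, lay lower in every TGFβ library (p = 0.1 by exact permutation, two-sided, which is the limit for 3 libraries against 3). Groups without overlap were found in 53.3% of all genes tested, a set that leaves out *Hoxa10*, which did not pass the filter. No such share was computed for genes below the filter.

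**Figure D3:**
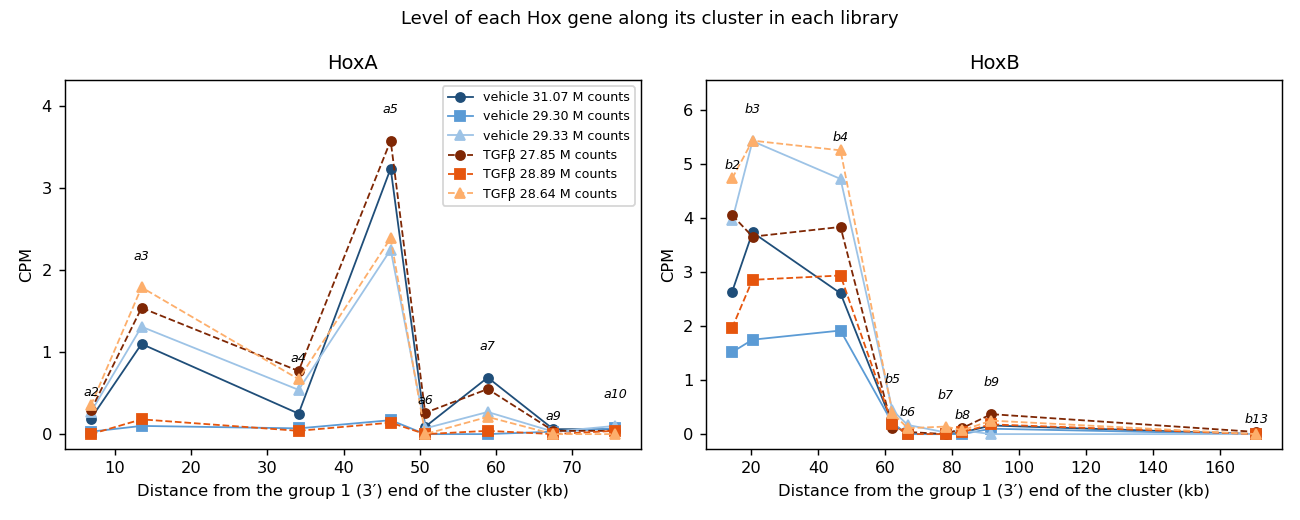
CPM of each reported gene of HoxA (left) and HoxB (right) in each of the 6 libraries (lines), against its distance in kb from the group 1 end of the cluster. Shapes follow the order of the columns and pair no libraries. In HoxA, the vehicle library of 29.30 M and the TGFβ library of 28.89 M stay at or below 0.18 CPM from *Hoxa2* to *Hoxa10*.

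In HoxB (chromosome 11, plus strand), groups 2, 3 and 4 were detected in every library and the genes beyond them were near 0. *Hoxb4* (ENSMUSG00000038692, chr11:96318267-96321638), known for expanding blood stem cells, had 2.61, 1.92 and 4.73 CPM with vehicle and 3.84, 2.94 and 5.26 with TGFβ (log2 fold change 0.38, SE 0.34, 95% interval -0.41 to 1.17, adjusted p = 0.412). *Hoxb3* (ENSMUSG00000048763, chr11:96323326-96347930), a hindbrain patterning gene, had 3.74, 1.75 and 5.43 CPM and 3.66, 2.86 and 5.44 CPM (0.13, SE 0.39, 95% interval -0.77 to 1.03, adjusted p = 0.816). *Hoxb2* (ENSMUSG00000075588, chr11:96350525-96354012), also of the hindbrain, had 2.64, 1.52 and 3.96 CPM and 4.06, 1.97 and 4.74 CPM (0.41, SE 0.40, 95% interval -0.51 to 1.33, adjusted p = 0.450). The groups overlapped in all 3 genes, with the same library lowest in each group, by less than in *Hoxa5*: the highest was 2.46, 3.10 and 2.61 times the lowest with vehicle. Of the windows of *Hoxb3*, 67.6% (17.2% for *Hoxb2*, 0% for *Hoxb4*) also occur in *Hoxb3os*, which lies on the opposite strand. *Hoxb3os* had 105 counts over the 6 libraries, and the strand setting of the counting is not given. The log2 fold change of *Hoxb3* changed sign without the vehicle library of 29.30 M (-0.20) or the TGFβ library of 28.64 M (-0.17). *Hoxb5* had 6, 6 and 13 counts with vehicle and 3, 5 and 11 with TGFβ, and *Hoxb6*, *Hoxb7*, *Hoxb8* and *Hoxb13* at most 5. *Hoxb9* had 5, 3 and 0 counts with vehicle and 10, 5 and 7 with TGFβ, and the groups did not overlap. It did not pass the filter, and of the genes that did, 53.3% were without overlap. With the filter left out, *Hoxb9* was the one Hox gene with an unadjusted p under 0.05 in edgeR (log2 fold change 1.55, adjusted p = 0.142).

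In HoxC (chromosome 15, plus strand), the posterior gene *Hoxc13* had the highest level. *Hoxc13* (ENSMUSG00000001655, chr15:102921103-102928814), a regulator of hair and nail keratins, had 0.94, 1.15 and 0.80 CPM with vehicle and 1.21, 0.97 and 1.40 with TGFβ (log2 fold change 0.31, SE 0.22, 95% interval -0.21 to 0.83, adjusted p = 0.316). The groups overlapped, and the vehicle library of 29.30 M was here the highest of its group. *Hoxc4*, *Hoxc5* and *Hoxc6* together had 39, 0 and 10 counts with vehicle and 43, 5 and 8 with TGFβ, so most of their reads came from the vehicle library of 31.07 M and the TGFβ library of 27.85 M. *Hoxc9* had 0 to 2 counts.

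In HoxD (chromosome 2, plus strand), the reads came from groups 8 to 10. *Hoxd8* (ENSMUSG00000027102, chr2:74704615-74707933), of the trunk, had 4.34, 4.48 and 5.33 CPM with vehicle and 3.07, 3.98 and 5.16 with TGFβ (log2 fold change -0.21, SE 0.19, 95% interval -0.66 to 0.23, adjusted p = 0.418). *Hoxd9* (ENSMUSG00000043342, chr2:74697727-74700208), which patterns limb and lumbar skeleton, had 1.13, 0.91 and 1.14 CPM and 0.55, 0.61 and 1.02 CPM (-0.54, SE 0.27, 95% interval -1.17 to 0.09, adjusted p = 0.149). *Hoxd10* (ENSMUSG00000050368, chr2:74691924-74695105), a gene of hindlimb motor neurons, had 0.47, 0.27 and 0.23 CPM and 0.22, 0.18 and 0.25 CPM and did not pass the filter. The groups overlapped in all 3 genes, and the *Hoxd9* overlap rested on 1 library: without the TGFβ library of 28.64 M, its log2 fold change was -0.88 with an adjusted p of 0.0317. With any other library left out it was between -0.64 and -0.38, with adjusted p from 0.161 to 0.366 in edgeR. *Hoxd3* and *Hoxd4* had 0 to 2 counts per library, and 85.3% of the windows of *Hoxd3* also occur in *Hoxd4*, *Hoxd3os1* or another transcript.

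**Figure D4:**
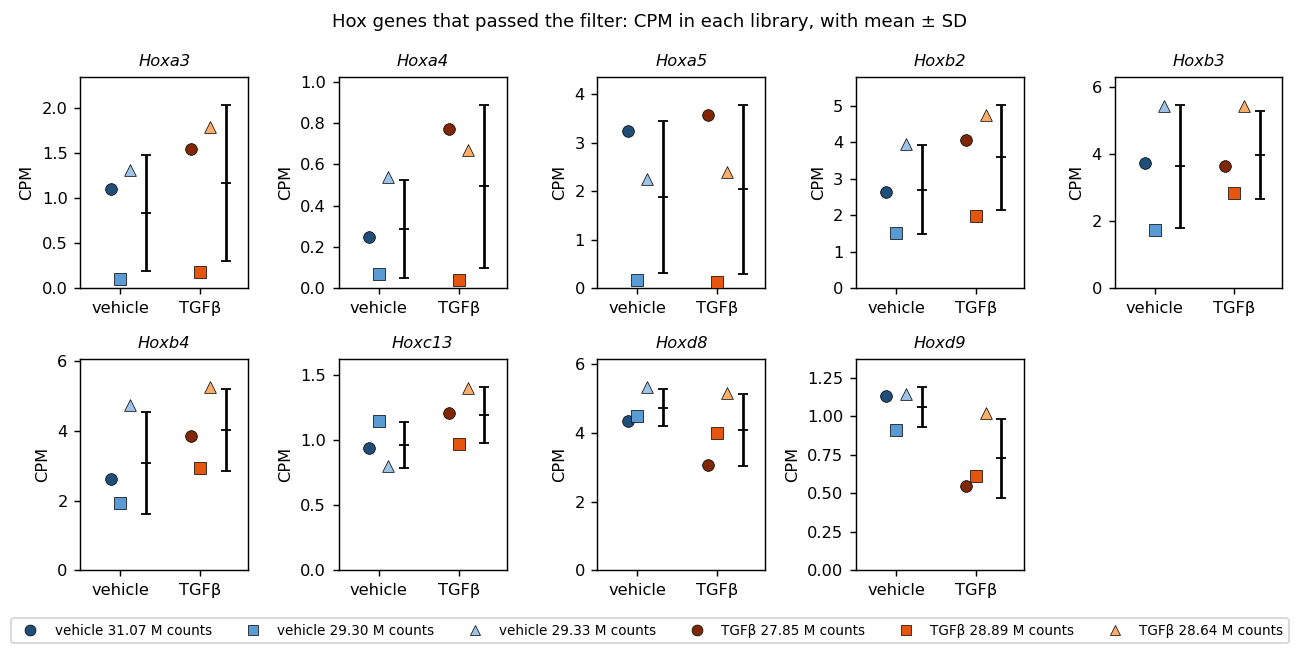
CPM of the 9 Hox genes that passed the filter in each of the 6 libraries, with the mean and SD of each group (3 libraries) as a bar at the right of the points. Shapes follow the order of the columns and pair no libraries. *Hoxa3*, *Hoxa4* and *Hoxa5* have 1 library near 0 in each group, while *Hoxd8* has none (3.07 to 5.33 CPM).

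Sums over stretches of the clusters show which genes differed between libraries of one group. Summed over HoxA groups 2 to 7, the CPM was 5.56, 0.37 and 4.69 with vehicle and 6.98, 0.39 and 5.40 with TGFβ. Over HoxC groups 4 to 6 it was 1.23, 0.00 and 0.34 and 1.57, 0.18 and 0.28. Over HoxB groups 2 to 4 it was 8.99, 5.19 and 14.11 and 11.55, 7.77 and 15.43. Over HoxD groups 8 to 10 it was 5.94, 5.66 and 6.70 with vehicle, where the library of 29.30 M was again lowest, but by little. With TGFβ it was 3.84, 4.76 and 6.42, and the library of 28.89 M was not the lowest. Of the 9 tested Hox genes, 6 were lowest in the vehicle library of 29.30 M and also in the TGFβ library of 28.89 M. The same held for 16.0% of genes in the Hox range of level and 13.02% of all genes tested. Both libraries were picked by their low HoxA counts and genes of a cluster are not independent, so this is a description and not a test. Without both libraries, a choice made after the data were seen, again 0 Hox genes were called, and the log2 fold change was 0.46 for *Hoxa3*, 0.86 for *Hoxa4*, 0.11 for *Hoxa5*, -0.01 for *Hoxb3*, 0.57 for *Hoxc13* and -0.53 for *Hoxd9*.

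Some other genes were also lowest in the vehicle library of 29.30 M and the TGFβ library of 28.89 M, as were 16.0% of genes in the Hox range of level. Summed over 6 mesothelium markers, the CPM was 83.8, 24.7 and 33.3 with vehicle and 41.8, 16.2 and 19.1 with TGFβ, again lowest in the same libraries. Unlike in HoxA, the first library of each group stood far above the rest in this sum. Of these markers 5 passed the filter, 0 were called, and none was at 0 in any library. *Wt1*, a transcription factor of epicardium and mesothelium, had 6.76, 0.98 and 2.78 CPM and 7.27, 1.54 and 2.49 CPM. *Tbx5*, a T-box factor of heart and forelimb, had 4.78, 2.87 and 5.97 CPM and 5.52, 2.51 and 5.89 CPM. *Nkx2-5* had 0.53, 0.17 and 0.77 CPM and 0.69, 0.11 and 0.49 CPM. *Aldh1a3* had 23.35, 12.81 and 26.72 CPM and 34.36, 20.02 and 34.03 CPM. The sum of 6 cardiomyocyte markers, nearly all of it *Tnnt2*, was also lowest there (38.2 CPM against 46.3 and 59.3 with vehicle, and 27.1 against 37.5 and 40.2 with TGFβ). The 6 cardiac fibroblast markers were divided. *Tbx5*, given above, is one of them, and *Gata6* was also lowest in both libraries (92.20, 74.11 and 78.71 CPM and 83.67, 74.20 and 76.92 CPM). *Hand2* was lowest in the vehicle library only, and *Tcf21*, by little, in the TGFβ library only (306.62 and 144.86 CPM in these libraries). *Gata4* (113.19 and 100.06 CPM) and *Tbx20* (645.43 and 435.18 CPM) were lowest in neither. The part of these cell types in the Hox levels was not tested.

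**Figure D5:**
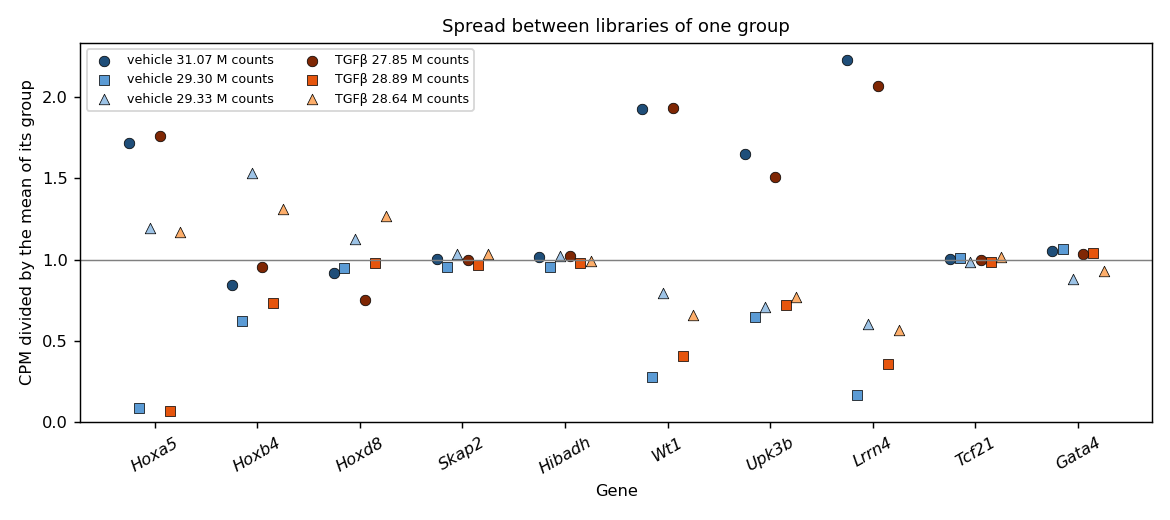
CPM of a gene in each library divided by the mean of the 3 libraries of its group. The genes are 3 Hox genes, 2 neighbours of the HoxA cluster, 3 mesothelium markers and 2 of the 6 cardiac fibroblast markers. These examples were chosen after their values were seen, and *Tbx5* and *Gata6*, of the same 6, are not shown. Shapes follow the order of the columns and pair no libraries. The squares (vehicle 29.30 and TGFβ 28.89 M) are near 0 for *Hoxa5* and low for *Wt1* and *Lrrn4*, and near 1 for *Hoxd8*, *Skap2*, *Hibadh*, *Tcf21* and *Gata4*.

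*Skap2* and *Hibadh*, neighbours of HoxA on either side, differed little between libraries, with 42.80, 40.70 and 44.02 CPM and 58.10, 54.62 and 58.53 CPM with vehicle. With TGFβ they had 40.61, 39.43 and 42.13 CPM and 58.52, 55.90 and 56.72 CPM. Both were lowest, by little, in the vehicle library of 29.30 M and the TGFβ library of 28.89 M. Of 14 neighbours in the table, 11 were tested, 3 were higher with TGFβ (*Cbx5*, a heterochromatin protein, log2 fold change 0.34, *Snx11*, 0.19, and *Lnpk*, 0.17) and 1 was lower (*Calcoco1*, -0.17), with a median of 0.04. This share was close to the 40.7% over all genes, and it fell to 1 gene with DESeq2 and to between 1 and 3 genes when a library was left out. Of the noncoding RNAs of the clusters, 6 were in the table and 3 were tested, *Hoxb3os* (log2 fold change 0.15), *Hotairm1* (0.12) and *Hoxd3os1* (-0.11), and 0 were called. *Hotairm1*, at the anterior end of HoxA, had 0.66, 0.47 and 0.74 CPM and 0.73, 0.50 and 0.81 CPM.

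Paralogs of different clusters were compared where both had passed the filter, which gave 2 pairs. The log2 ratio of *Hoxa3* to *Hoxb3* (pseudocount 0.1 CPM) was -2.29 ± 0.81 (SD, n = 3) with vehicle and -2.05 ± 1.19 (SD, n = 3) with TGFβ, and the difference did not exceed this spread (two-sided exact permutation test, p = 0.7, adjusted over both pairs 1). That of *Hoxa4* to *Hoxb4* was -3.15 ± 0.38 (SD, n = 3) and -3.16 ± 1.19 (SD, n = 3) (exact permutation p = 1). The smallest p this design allows is 0.1.

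Genes that act with or on Hox genes were taken by list, and the calls in each list are to be read against the 40.7% called over all genes tested. Of 10 TALE homeodomain genes tested, 2 were higher with TGFβ and 1 lower (median log2 fold change -0.07), a smaller share than over all genes. The list includes *Tgif1* and *Tgif2*, which are not PBX, MEIS or PREP genes. *Tgif1*, a repressor that binds SMAD proteins, had 49.43, 49.33 and 56.72 CPM with vehicle and 73.51, 72.59 and 80.12 with TGFβ (log2 fold change 0.54, SE 0.07, adjusted p = 0.000614). *Pknox2* was higher (0.34, adjusted p = 0.00511) and *Pknox1* (PREP1) lower (-0.20, adjusted p = 0.0269). *Meis1* and *Meis2*, classical partners of Hox proteins, had log2 fold changes of -0.11 and 0.01 and did not pass.

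Of 21 Polycomb genes, 1 was higher and 5 lower (median -0.06), also a smaller share than the 40.7% over all genes. The lower ones were 3 chromobox genes, whose products read H3K27 methylation, *Cbx7* (log2 fold change -1.13, SE 0.17, adjusted p = 0.00157), *Cbx2* (-0.66) and *Cbx6* (-0.41), and 2 genes of the complex that writes the mark, *Phf19* (-0.84) and *Ezh1* (-0.20). *Pcgf2* (MEL18) was higher (0.32, adjusted p = 0.00190). *Cbx7* had 3.74, 4.79 and 5.23 CPM with vehicle and 1.90, 2.40 and 1.96 with TGFβ, with no overlap. *Ezh2*, *Eed* and *Suz12*, the core of the writing complex, had log2 fold changes of -0.10, 0.10 and 0.09 and did not pass. Of 10 genes for H3K27 demethylation, trithorax methylation and CTCF, 0 passed at an adjusted p under 0.05 in edgeR (median -0.07).

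Retinoic acid acts upstream of anterior Hox genes in the embryo. Of 11 upstream regulators tested, 2 were higher and 3 lower (median -0.08), a share near the 40.7% over all genes, and only 3 were called when the vehicle library of 31.07 M or that of 29.33 M was left out. The synthesis genes *Aldh1a1* (-0.96, SE 0.20, adjusted p = 0.00705) and *Aldh1a2* (-0.46, adjusted p = 0.00113) were lower, as was *Cyp26b1*, which degrades retinoic acid (-0.36). The receptor gene *Rarb*, itself a retinoic acid target, was higher (0.45, adjusted p = 0.00317), and so was *Cyp26a1* (1.62, adjusted p = 0.0394) at 0.57, 0.30 and 0.44 CPM and 2.27, 0.54 and 1.26 CPM.

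Of 19 other positional transcription factors tested, 3 were higher and 5 lower (median -0.14), again near the 40.7% over all genes. *Meox1*, a homeobox gene of somites, had 10.24, 11.36 and 13.71 CPM with vehicle and 43.54, 45.44 and 67.80 with TGFβ (log2 fold change 2.15, SE 0.19, adjusted p = 0.000122). *Emx2* (1.81) and *Tbx18*, of the epicardium (0.55), were also higher, and *Meox2* (-1.26), *Tcf21* (-1.05), *Prrx1*, of limb and connective tissue (-0.80), *Tbx20* (-0.53) and *Hand2* (-0.25) were lower. Among the tested Hox genes the largest log2 fold change, 0.77 for *Hoxa4*, was smaller than its standard error of 0.84. Those of *Hoxb2*, *Hoxb4*, *Hoxc13*, *Hoxd8* and *Hoxd9* (-0.54, SE 0.27) were larger than their standard errors, though each 95% interval included 0.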

How the data were processed

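The authors made stranded poly(A) libraries, read single-end for 75 bases, aligned them to mm10 and compared groups with DESeq2. The aligner, counting tool, annotation and strand setting are not given in the sources used here. The deposited values are raw counts of reads per gene, as whole numbers, in 6 columns. Further columns hold the authors' own mean, fold change and p-values and were not used. The libraries held 27.85 to 31.07 M counts.

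Libraries were scaled with TMM factors, low genes removed with filterByExpr (minimum count 10), and TGFβ compared with vehicle by edgeR's quasi-likelihood test (edgeR 4.0.16, R 4.3.3), with no covariate and p-values adjusted over the 14334 genes kept by the Benjamini-Hochberg method. The standard error is the fold change over the square root of F. The steps were tested on simulated data, with the same spread for every gene and changes placed only in better counted genes. The simulation does not show how well changes in these Hox genes would be found. Alternatives were DESeq2 1.42.0, limma-voom (limma 3.58.1), 2 other scalings, 2 other filters, a stricter threshold and each library left out in turn.

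A few genes matched by the rule or the lists were fitted with the rest but are not reported. The members and gene lists were chosen with earlier results of these data known. Genes named are the Hox genes past the threshold, the 12 with the highest RPKM with vehicle and, of each list, up to 3 rises and 3 falls past the threshold, beside a few chosen after their values were seen. Lengths and overlaps come from GENCODE M21, in which 25086 table genes were found.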

Additional observations from a re-analysis of the deposited data

How the results depend on the processing

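The count of 0 Hox genes called was the same under every alternative run except the removal of the TGFβ library of 28.64 M counts, which called 1 (*Hoxd9*, log2 fold change -0.88). Leaving out single libraries gave counts of 0 to 1. Of 116 alternative values of the tested Hox genes, 107 kept their sign and side of the threshold and 8 changed sign: *Hoxa3* without 1 library (-0.04, in a range up to 0.98), *Hoxa5* with limma-voom (-0.02) and without 1 library (-0.57, -0.43 and -0.04, in a range up to 0.75), and *Hoxb3* without 1 library (-0.20 and -0.17, in a range up to 0.53) and without both libraries with few HoxA reads (-0.01). The cause was not tested. The count of 6 Hox genes expressed with vehicle was 16 at 0.1 CPM and 3 at 1 RPKM, and the HoxB share of 46.7% by CPM was 39.5% by RPKM. Among the lists, H3K27 and trithorax genes went from 0 to 1 with upper quartile scaling, the 5 upstream regulators to between 3 and 5 with single libraries left out, and the 4 cluster neighbours to 1 with DESeq2, to 1 without both libraries, and to between 1 and 3 with each library left out.

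No paired analysis was possible because the columns carry no replicate numbers. The unpaired test therefore counted any difference between sources shared by both groups as spread within groups. Its standard errors, intervals and calls carry that limit, and whether libraries shared a source was not tested. As a description over 14334 genes, which are not independent, deviations from the group means correlated with r = 0.40 between the vehicle library of 29.30 M and the TGFβ library of 28.89 M, 0.37 between those of 31.07 and 27.85 M, 0.45 between those of 29.33 and 28.64 M, and from -0.26 to -0.12 between the others. Deviations from a group mean cancel out within each gene, so a positive r in some pairs forces negative ones in others. Few counts kept 18 of the 27 Hox genes out of the test, though the fit without a filter took in all 27. DESeq2 was also run on all 27, but it can leave genes with few counts without an adjusted p.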
